A study of Homo sapiens with 6 samples.

Results

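The MYC, MAX and MXD network was examined through 10 listed genes: MYC, MAX, MXD1, MXD3, MXD4, MXI1, MNT, MLX, MLXIP and MGA. Every probe set that the array annotation assigns to 1 of these genes alone was taken, which gave 27 probe sets of 9 genes, out of 41097 single-gene probe sets of 19775 genes on the array. MXD4 has 3 probe sets, all shared with another gene, so no expression value is given for it. The network was chosen by the measured values of MXD1 in transfected and parental cells, already known, so the network genes' own values against parental cells are given as a description with no test. Of the 27 probe sets, 23 passed the filter on dim signals, an intensity above the median of all values, 50.53, on at least 2 of the 6 arrays.

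RNA came from AGS and HGC-27, established human gastric carcinoma cell lines, with 1 array for each of 3 conditions in each line. The MIST1 cells were nucleofected with 3 µg of a plasmid for MIST1, a basic helix-loop-helix transcription factor of secretory cells encoded by BHLHA15, together with 1.5 µg of pmaxGFP. The GFP control cells received empty vector and pmaxGFP in the same amounts, and the parental cells of each line were not transfected. Both transfected populations were sorted on GFP at 24 h and grown for another 24 h, so they differ from parental cells in nucleofection, plasmid load, GFP expression and sorting together. The lines carry whatever MIST1 they make themselves, expression from the plasmid is transient, and the study asked which genes MIST1 raises. Values are the deposited linear intensity of a probe set, and differences are in log2 units after values under a floor of 17.6 were raised to it. With 1 array per condition and line, the number of arrays limits the precision of every value, and nothing in the labels describes repeat cultures.

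MYC and MAX are helix-loop-helix leucine zipper proteins that bind DNA as a pair at the E-box CACGTG and activate genes of ribosome production, nucleotide supply and growth. MXD1, MXD3, MXD4, MXI1 and MNT compete for MAX and, as pairs with it, bring SIN3 and histone deacetylases to the same sites, which represses transcription. MGA joins MAX in a Polycomb complex with E2F6, and MLX pairs with MLXIP, also called MondoA, in a parallel arm that reads glucose-derived metabolites. Higher MXD1 with lower MYC is a familiar pattern of cells that stop dividing or differentiate.

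Several facts of the arrays touch what follows. The probe set of BHLHA15 read 72.5, 75.8 and 66.3 in AGS, against 58.7, 61.9 and 41.1 in HGC-27 in MIST1, GFP control and parental cells. The MIST1 arrays thus lay no higher than the GFP controls on it, and no source used here says whether the plasmid transcript carries the probed stretch. Arrays of the same line correlated at 0.971 to 0.996 (Pearson r across genes, which are not independent replicates), and arrays of different lines at 0.692 to 0.719. The summed intensity of 6 epithelial markers was 41700 to 48100 in AGS and 1460 to 1700 in HGC-27, while 4 mesenchymal markers summed to 340 to 371 in AGS and 13800 to 15100 in HGC-27. In HGC-27, EPCAM, KRT18, KRT19 and CLDN4 read at most 35.8, near or under the floor of 17.6, while KRT8 read 1350 to 1560 and made up most of the epithelial sum. CDH1 there read 75.4 with MIST1, 89.8 in the GFP control and 22.1 in parental cells. Of the leukocyte and endothelial markers, 3 and 3 were on the array and 1 of each passed the filter.

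The promoters of the network genes show where its own E-box stands. Windows of 250 bases before the annotated start site were read from the RefSeq promoter table (GRCh38.p14) for 9 of the 10 genes, in 14 windows. MYC was left out of this search, so nothing is said of its promoter. The canonical E-box of the network, CACGTG, was searched together with 2 further E-boxes, CAGCTG being one and CATATG the other. Each equals its own reverse complement, so 1 search covers both strands. The windows of MNT, MLX and MXD4 held CACGTG, that of MXD3 held CAGCTG, and 5 genes, MXD1 among them, held none of the 3. Of all 35116 promoter windows in the table, 6.34% held CACGTG, 14% held CAGCTG and 2.63% held CATATG. Counted by gene over 27305 genes, with any window of a gene sufficing, the shares were 7.73% for CACGTG, 16.7% for CAGCTG and 3.22% for CATATG. The windows of MNT, MLX and MXD3 are shown because each holds a match, in capitals, and that of MXD1 because all 3 of its probe sets stood at least 1.5-fold above parental cells in both lines. The window of MXD4, a gene with no expression value here, holds its match at -238 and is not shown.
MXD1, chr2:69914859-69915108, plus strand: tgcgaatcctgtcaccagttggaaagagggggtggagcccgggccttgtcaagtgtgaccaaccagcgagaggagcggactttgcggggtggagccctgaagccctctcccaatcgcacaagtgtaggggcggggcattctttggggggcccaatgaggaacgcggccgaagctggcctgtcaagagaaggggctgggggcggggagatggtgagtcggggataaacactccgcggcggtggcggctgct
MNT, chr17:2401061-2401310, minus strand: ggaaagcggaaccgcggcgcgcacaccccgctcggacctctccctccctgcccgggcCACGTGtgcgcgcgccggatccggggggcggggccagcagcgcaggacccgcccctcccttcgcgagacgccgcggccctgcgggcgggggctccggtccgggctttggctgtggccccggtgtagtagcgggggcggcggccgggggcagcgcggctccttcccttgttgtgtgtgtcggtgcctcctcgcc
MLX, chr17:42566850-42567099, plus strand: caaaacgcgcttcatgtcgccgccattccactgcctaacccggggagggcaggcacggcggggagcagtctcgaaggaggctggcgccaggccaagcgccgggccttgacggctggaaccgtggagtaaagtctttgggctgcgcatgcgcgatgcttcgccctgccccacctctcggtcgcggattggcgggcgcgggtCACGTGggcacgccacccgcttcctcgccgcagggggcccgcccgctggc
MXD3, chr5:177312753-177313002, minus strand: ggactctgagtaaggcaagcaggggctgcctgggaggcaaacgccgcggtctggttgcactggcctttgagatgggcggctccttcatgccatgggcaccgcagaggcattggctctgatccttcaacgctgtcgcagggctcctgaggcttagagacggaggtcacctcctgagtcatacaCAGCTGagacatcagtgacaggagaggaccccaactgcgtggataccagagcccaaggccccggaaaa
The capitals begin at -193 in MNT, at -50 in MLX and at -68 in MXD3, counted from the start site. A match is a description of these letters and no evidence of binding.

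MYC, the activator at the centre of the network, was lower in both transfected AGS populations than in parental AGS and nearly level across HGC-27. In AGS its probe set 202431_s_at read 1790 with MIST1, 1580 in the GFP control and 3370 in parental cells. In HGC-27 it read 5200 with MIST1, 4760 in the GFP control and 5050 in parental cells. The order was HGC-27 MIST1, HGC-27 parental, HGC-27 GFP control, AGS parental, AGS MIST1 and AGS GFP control, and neighbours within a line have no replicate spread of their own. The 2 lines did not overlap. GFP control over parental was -1.09 in AGS, 0.47-fold, and -0.09 in HGC-27, a range of 1.09 over the 3 AGS arrays against 0.13 over the 3 HGC-27 arrays. MIST1 over GFP control was 0.18 in AGS and 0.13 in HGC-27.

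**Figure D1:**
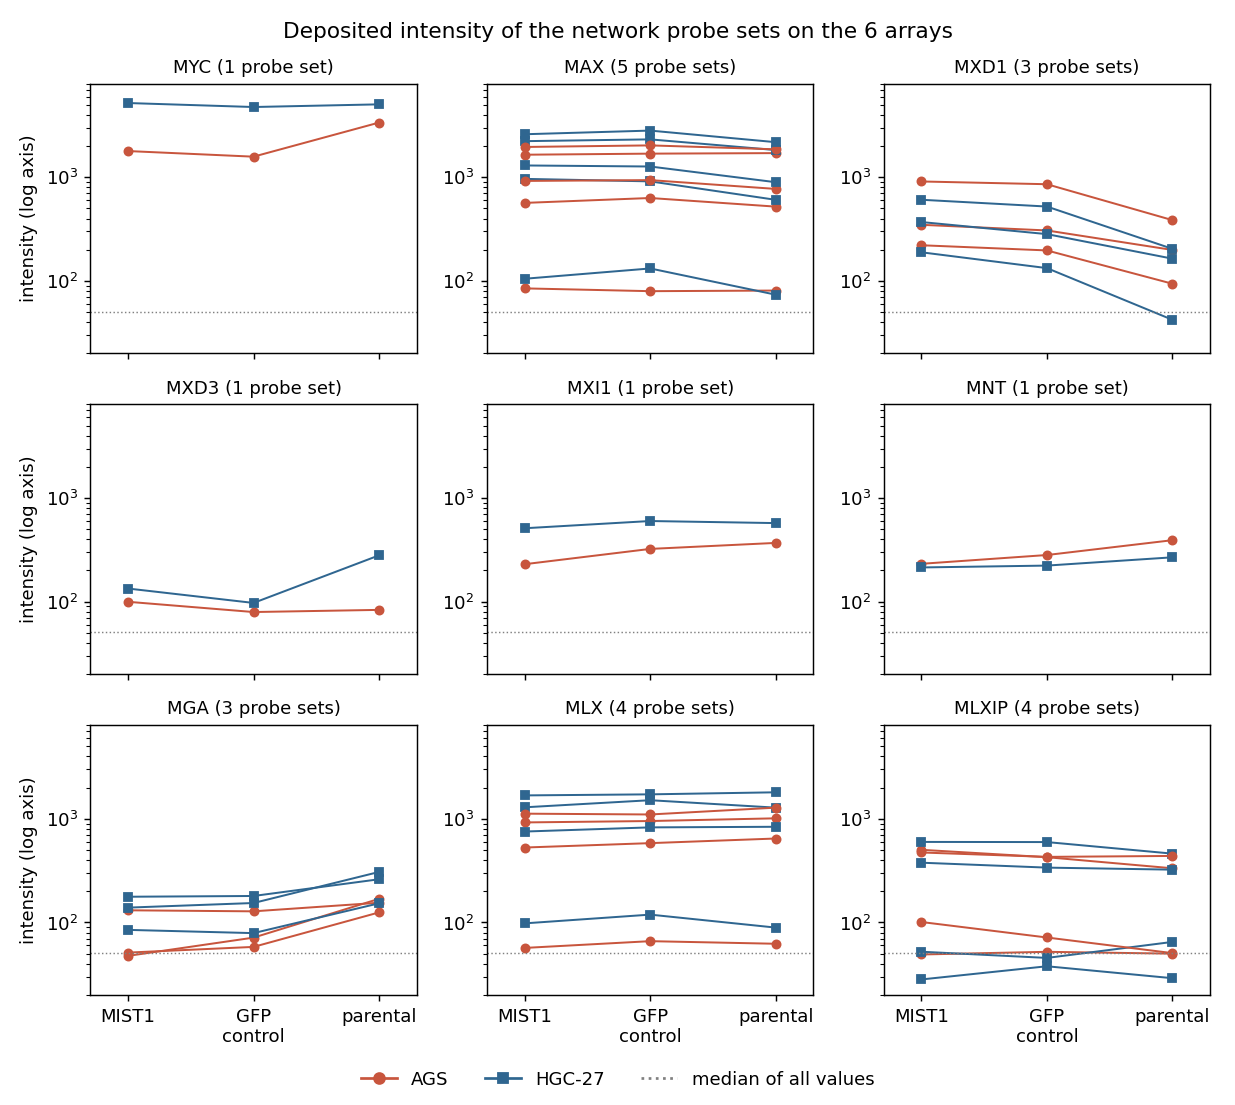
Deposited intensity (log axis) of the 23 probe sets that passed the filter, in 1 panel per gene, for MIST1, GFP control and parental cells of AGS (circles) and HGC-27 (squares). Each point is 1 array, lines join the arrays of 1 cell line, and the dotted line is the median of all values, 50.53. MXD1 lies higher in both transfected conditions than in parental cells, MYC is low in the transfected AGS cells, and 2 MGA probe sets are low in the transfected cells of both lines.

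MAX, the shared partner, has 5 probe sets that passed. Its brightest, 209332_s_at, read 1960, 2030 and 1860 in AGS, against 2600, 2820 and 2180 in HGC-27, in the order MIST1, GFP control and parental. These levels spanned 0.13 in AGS and 0.37 in HGC-27. Over the 5 probe sets, GFP control over parental ran from -0.02 to 0.28 in AGS, with 0.35 to 0.84 for HGC-27, where all 5 were higher. The median of all probe sets was itself 0.14 in this HGC-27 difference and 0.03 after quantile normalization, and the MAX values must be read against it. After quantile normalization 209331_s_at, at -0.02 in AGS, came to 0.00316, and the HGC-27 value of 214108_at came to 0.73. MIST1 over GFP control lay between -0.16 and 0.09 in AGS and between -0.33 and 0.08 in HGC-27. Of the MAX probe sets, 208403_x_at and 210734_x_at, are of the _x_at kind, which can cross-hybridize.

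MXD1, the MYC antagonist named MAD1 in early work, was higher in transfected than in parental cells on all 3 of its probe sets in both lines. Probe set 228846_at read 911 with MIST1, 857 in the GFP control and 386 in parental AGS, and 607, 522 and 204 in HGC-27. GFP control over parental was 1.15 in AGS, 2.22-fold, and 1.35 in HGC-27, 2.56-fold. Within each line both transfected arrays lay above the parental one, and the parental AGS value lay below every transfected value of HGC-27. Probe set 206877_at read 221, 197 and 94 in AGS, against 189, 133 and 42.2 in HGC-27, again in the order MIST1, GFP control and parental. Its GFP control over parental differences were 1.07 and 1.65. The third probe set, 226275_at, read 348, 307 and 199 in AGS, against 370, 283 and 164 in HGC-27, with smaller differences of 0.63 and 0.78. MIST1 over GFP control was positive on all 3 probe sets in both lines, from 0.09 to 0.18 in AGS, with 0.22 to 0.51 for HGC-27.

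The balance of MXD1 to MYC can be followed as the log2 difference of each MXD1 probe set less that of the MYC probe set, as a description with no test. In MIST1 over GFP control it was -0.09 for 228846_at, -0.02 for 206877_at and -0.00111 for 226275_at in AGS. The HGC-27 values were 0.09 for 228846_at, 0.38 for 206877_at and 0.26 for 226275_at. In GFP control over parental, whose MXD1 values chose the network, the AGS balance ran between 1.71 and 2.24 over the 3 probe sets and the HGC-27 balance between 0.87 and 1.74. MYC and MXD1 both entered this balance in AGS, whereas in HGC-27 the MYC term was -0.09.

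None of the other measured MAX-binding repressors, MXD3, MXI1 and MNT, stood above the parental level in the GFP controls of both lines. MXD3, a repressor linked to proliferating cells, read 99.8, 79.5 and 83.4 in AGS, against 134, 97.3 and 280 in HGC-27 for MIST1, GFP control and parental. Its GFP control over parental difference was -0.07 in AGS and -1.53 in HGC-27, where the parental array stood well above the others. MXI1, also called MXD2, read 230, 323 and 369 in AGS, against 511, 600 and 573 in HGC-27. It was lowest with MIST1 in both lines, with MIST1 over GFP control at -0.49 and -0.23. MNT, the broadly expressed antagonist, read 232, 282 and 392 on 204206_at in AGS, against 214, 223 and 268 in HGC-27. Over parental cells the GFP controls stood at -0.48 and -0.26, so MNT and MXD1 lay on opposite sides of the parental level in each line. The other MNT probe set, 236749_at, read 31.3 to 46.2 and did not pass the filter.

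MGA, the Polycomb-linked partner of MAX, was lower in transfected than in parental cells on all 3 probe sets that passed. Probe set 230848_s_at read 47.6, 71.4 and 169 in AGS, against 139, 154 and 307 in HGC-27, in the order MIST1, GFP control and parental. GFP control over parental was -1.24 in AGS, 0.422-fold, and -0.99 in HGC-27, 0.502-fold. Probe set 235409_at read 51.2, 58.1 and 125 in AGS, against 84.8, 78.9 and 153 in HGC-27, with differences of -1.11 and -0.95. On both of these the parental array was the highest of its line. The brighter 212945_s_at moved less: it read 131, 128 and 155 in AGS, against 177, 180 and 261 in HGC-27, which is -0.28 and -0.54 for GFP control over parental. The probe sets of MGA therefore disagree on size by over 1.5-fold in AGS while sharing a direction. MIST1 over GFP control was -0.58 in AGS and -0.14 in HGC-27 on 230848_s_at, and -0.18 and 0.10 on 235409_at. The fourth MGA probe set, 1564640_at, read 4.44 to 19.3 and did not pass.

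In the glucose-sensing arm, MLX has 4 probe sets that passed and MLXIP has 4. MLX on 217909_s_at read 1120, 1100 and 1280 in AGS, against 1680, 1720 and 1800 in HGC-27 for MIST1, GFP control and parental, a range of 0.21 and 0.09 within the lines. The 4 MLX differences of GFP control over parental ran from -0.21 to 0.08 in AGS, with -0.06 to 0.42 for HGC-27. MLXIP on its brightest probe set, 202519_at, read 502, 426 and 333 in AGS, against 598, 596 and 461 in HGC-27. There the GFP controls stood at 0.35 and 0.37 over parental cells. A second MLXIP probe set, 225157_at, read 473, 429 and 438 in AGS, against 377, 338 and 323 in HGC-27, with differences of -0.03 and 0.06. The dim 211789_s_at read 101, 71.6 and 50.6 in AGS, against 28.2, 37.8 and 29 in HGC-27, and 1554886_a_at read 45.5 to 64.9 over all arrays. The MLXIP probe sets thus differ in which line is higher, and no single value stands for the gene. MLX 1570347_at, at 35 to 53.7, and 231401_s_at, at 1 to 1.08, did not pass.

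Against the GFP control, which shares nucleofection and sorting with the MIST1 cells, no network probe set passed a test. None of the 23 was at least 1.5-fold higher or lower with MIST1 in both lines, where 0.208% of all 25948 probe sets tested were higher and 0.0308% lower. With limma, cell line as a block and Benjamini-Hochberg adjustment, 0 of 23 were called at an adjusted p under 0.05, 0% of all probe sets were called, and 0 of 23 had an unadjusted p under 0.05, against 314 of the 25948. Fitted on the 4 transfected arrays alone, limma called 61 of all probe sets, 0.235%, and 0 of the 23. The lowest adjusted p among the members in that fit was 0.179, for MXI1, and 6 of the 23 had an unadjusted p under 0.05 (26.1%), beside 11.8% of all probe sets. The 6 were MXI1, MYC, MXD3, MGA 230848_s_at and MXD1 226275_at and 206877_at. The SE of MYC there was 0.0434. It combines 1 residual degree of freedom of its own with the spread that limma shares over all probe sets. MXI1 differed by -0.36 (SE 0.164) in the fit of all 6 arrays, MXD1 by 0.34 (SE 0.241) on 206877_at, MYC by 0.15 (SE 0.229) and MXD3 by 0.39 (SE 0.351). Over the 23 probe sets, 7 were higher and 8 lower in both lines, where 22.9% of all probe sets were higher and 33.5% lower, and their median was -0.01, beside -0.02 over all probe sets. A p that misses the threshold does not show equal levels.

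**Figure D2:**
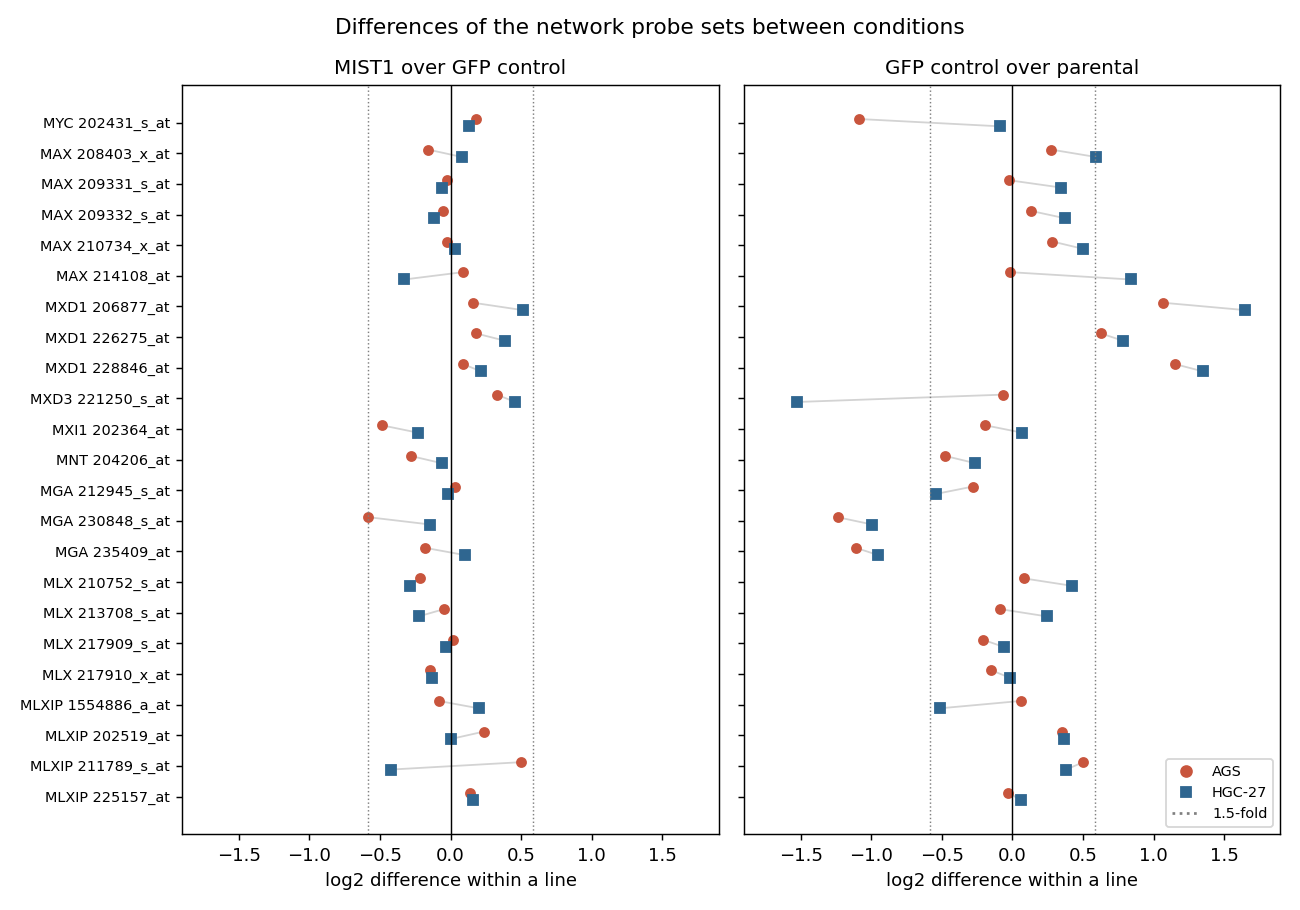
Log2 difference within each line for the 23 network probe sets, MIST1 over GFP control (left panel) and GFP control over parental (right panel), with AGS as circles, HGC-27 as squares and a grey line joining the 2 lines. Dotted lines mark 1.5-fold. On the left no probe set lies past a dotted line in either line. On the right the 3 MXD1 probe sets lie past it upward and 2 MGA probe sets downward in both lines, while MYC does so downward in AGS, and MXD3 downward and 2 MAX probe sets upward in HGC-27.

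In GFP control over parental, 3 of the 23 probe sets were at least 1.5-fold higher in both lines and 2 lower, beside 3.05% and 2.04% of all probe sets. The 3 are those of MXD1 and the 2 are MGA 230848_s_at and 235409_at. These counts rest on values that chose the network, and nothing is read from them. MIST1 over parental, which shares the parental arrays, gave 3 higher and 2 lower (3.6% and 2.29% of all probe sets), with MXD1 228846_at at 1.24 and 1.57 and MGA 230848_s_at at -1.83 and -1.14. In AGS alone, 3 were at least 1.5-fold higher and 3 lower GFP control over parental, beside 7.72% and 7.8% of all probe sets. MIST1 over parental there gave 5 higher and 5 lower, beside 9.8% and 9.71%. In HGC-27 alone, 5 were higher and 3 lower GFP control over parental, beside 14.6% and 5.33% of all probe sets. MIST1 over parental there gave 4 higher and 3 lower, beside 13.3% and 6.07%. The 18S ribosomal control probe set read 48.23 and 52.02 in the GFP controls of AGS and HGC-27 and 46.8 and 52.66 with MIST1, against 1142 and 370.5 in parental cells. The ACTB 3' to 5' ratio was 0.968 to 1.05 on all arrays. The 3 leukocyte markers on the array summed to 97 and 111 in the GFP controls, against 62.5 and 104 in parental cells, and the 3 endothelial markers to 144 and 120, against 130 and 136. The part of the 18S and marker differences in these values was not tested.

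AGS and HGC-27 differed in most of the network. Of the 23 probe sets, limma called 4 higher in AGS and 15 lower, beside 32.9% and 26.9% of all probe sets, which is 59.8% in either direction. The 3 conditions stand in for replicates here, so these p-values hold no measure of how cultures of 1 condition vary. MYC was lower in AGS in each of the 3 conditions, with -1.54, -1.59 and -0.59 for MIST1, GFP control and parental cells, a mean of -1.24 (SE 0.187, adjusted p = 0.0012). MXI1 was lower in AGS as well, at -0.89 (SE 0.134, adjusted p = 0.00115), and so were all 3 MGA probe sets, led by 230848_s_at at -1.17 (SE 0.17, adjusted p = 0.000963). MXD3 was called lower at -0.82 (SE 0.287, adjusted p = 0.0436), a value carried by its high parental HGC-27 array, since without both parental arrays it was -0.36. All 4 MLX probe sets were lower in AGS, between -0.72 and -0.47, and 4 of 5 MAX probe sets, between -0.51 and -0.33.

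The probe sets higher in AGS belonged to MXD1 and MLXIP. MXD1 228846_at was higher by 0.74 (SE 0.115, adjusted p = 0.00135) and 206877_at by 0.65 (SE 0.197, adjusted p = 0.026), while 226275_at gave 0.10 (SE 0.128, adjusted p = 0.52). MLXIP 211789_s_at was higher in AGS by 1.19 and 225157_at by 0.37, whereas 202519_at was lower at -0.40, all called. Not called were MLXIP 1554886_a_at, MAX 214108_at, MXD1 226275_at and MNT, whose mean was 0.33 (adjusted p = 0.068). The median of the 23 was -0.40, beside 0.07 over all probe sets. Leaving out 1 of the 4 transfected arrays moved the count of lower probe sets to 8 without the HGC-27 GFP control and to 9 without each of the other three. Without a term for condition, limma called 2 higher and 9 lower. Without a filter on dim probe sets it called 2 and 9, and the adjusted p of MYC was 0.0716. MXI1, MLX 210752_s_at and 217909_s_at and MGA 212945_s_at kept an adjusted p under 0.05 in every alternative that tested them, with highest values of 0.0318, 0.0484, 0.0105 and 0.0462. Without both parental arrays, where MYC stood at -1.56, 4 were higher and 16 lower. The share of all probe sets called was not worked out for these alternatives. The summed epithelial and mesenchymal markers, given above, separate the same lines, and in bulk samples fewer cells of a type and less RNA per cell cannot be told apart.

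**Figure D3:**
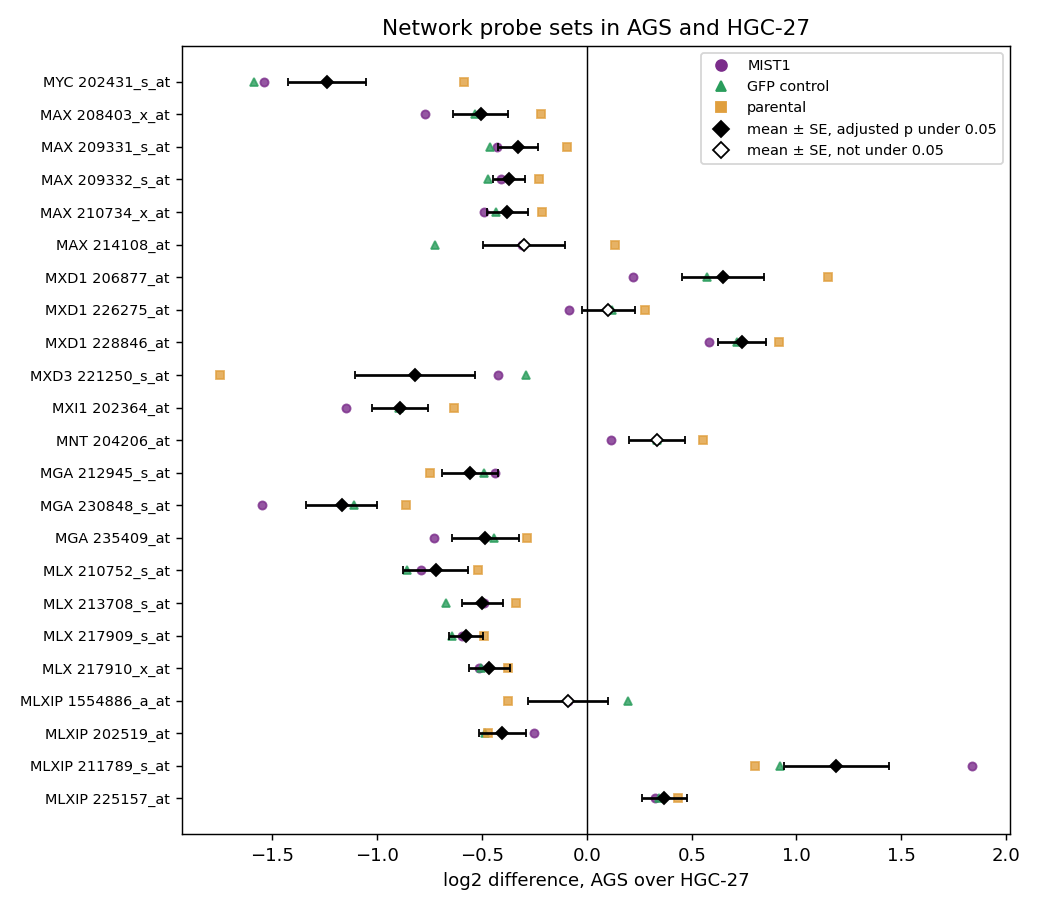
Log2 difference AGS over HGC-27 for the 23 network probe sets, for MIST1 (circles), GFP control (triangles) and parental cells (squares). Diamonds with bars show the mean and its limma SE, filled where the adjusted p is under 0.05. The diamonds of MYC, MXI1, MLX and MGA lie left of 0 and are filled, and those of MXD1 lie right of 0, 2 of 3 filled.

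The genes around the network were read from 9 lists holding 116 genes, 102 of them measured, each by its brightest probe set. These lists were chosen with earlier results of these data known, so the p-values of their genes are no independent test. MIST1 over GFP control, limma called 0 of the 102 in either direction, where 0% of all 13738 genes were called. An unadjusted p under 0.05 was met by 2 of the 102, beside 314 of the 25948 probe sets. Among targets of MLX and MLXIP, ARRDC3, an alpha-arrestin, read 243 and 575 with MIST1 in AGS and HGC-27, against 103 and 308 in their GFP controls, a mean of 1.07 (SE 0.166). TXNIP, the thioredoxin-binding protein that restrains glucose uptake, gave 0.31 and 0.69. NDRG1, a stress gene repressed by MYC, gave 0.63 and 0.57. In limma on the 4 transfected arrays ARRDC3 (adjusted p = 0.00236) and NDRG1 (adjusted p = 0.0172) were called higher. The count was also 2 without the AGS or the HGC-27 parental array. For these fits the share of all genes called was not worked out. The 29 measured genes that MYC activates had a median of -0.03, beside -0.02 over all genes, and the 12 that it represses had -0.04.

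In GFP control over parental, limma called 0 of the 102 list genes, where 0.131% of all genes were called higher and 0.116% lower. An unadjusted p under 0.05 was met by 23 of the 102, beside 5944 of the 25948 probe sets. MYC-activated targets had a median of -0.21 in AGS and -0.01 in HGC-27, beside 0 and 0.13 over all genes. Of the 29, 25 were lower in AGS and 17 in HGC-27, 14 in both and 1 higher in both. Over all genes, 23.4% were lower in both lines and 37.1% higher. WDR43, a ribosome assembly factor, had the largest difference, with 497 and 636 in the GFP controls of AGS and HGC-27 against 1010 and 895 in parental cells, which is -1.02 and -0.49 (adjusted p = 0.0886).

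MYC-repressed targets had a median of 0.18 in AGS and 0.71 in HGC-27 for GFP control over parental. Of the 12, 5 were higher and 2 lower in both lines, beside the 37.1% and 23.4% of all genes. The 2 lower ones, named after their values were seen, are CDKN1B at -0.575 and -0.338 and KLF6 at -0.333 and -0.322. The cell cycle inhibitor CDKN2B read 976 and 345 in the GFP controls against 479 and 70.5 in parental cells, differences of 1.03 and 2.29 (adjusted p = 0.0617). CDKN1A, the p21 inhibitor, read 6360 and 285 against 3860 and 159, differences of 0.72 and 0.84 (adjusted p = 0.0528), and was called after quantile normalization (0.69, adjusted p = 0.0495). Among proliferation genes BUB1 gave -0.61 and -0.55 and PLK1 -0.49 and -0.89, with 6 of 9 lower in both lines. SIN3B, the corepressor that MXD proteins recruit, gave 0.47 and 0.66, and FBXO32, an F-box protein linked to MYC degradation, gave 0.06 and 1.93. With 1 parental array left out, the lone one is assumed to vary like the other groups, since limma pools the spread. List calls changed in such fits, and their range is given only with the processing checks at the end. Nothing is read from that range, since the share of all genes called was not worked out. With a GFP control or parental array left out, the medians of the MYC targets were those of the remaining line. Fitted on the 4 arrays compared alone, limma called 4 list genes higher and 4 lower, again with no share over all genes.

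**Figure D4:**
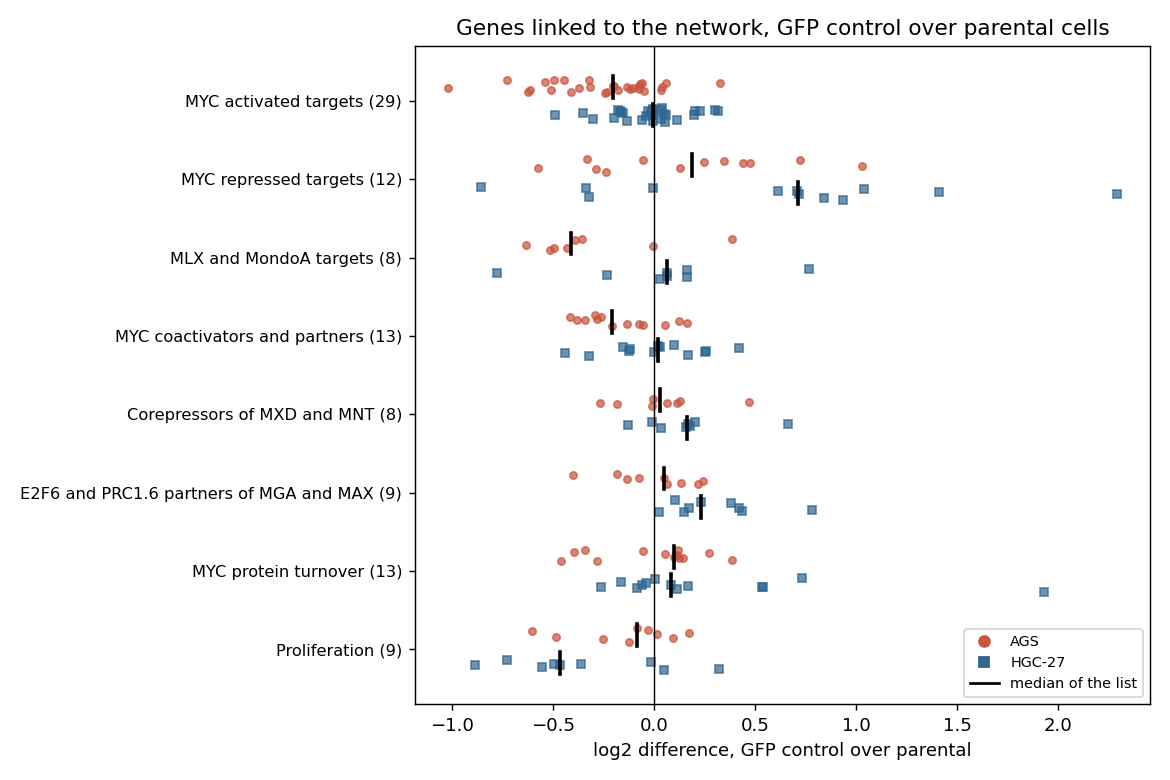
Log2 difference of GFP control over parental for genes of 8 lists linked to the network, with AGS as circles above and HGC-27 as squares below in each list, and the number of measured genes in brackets. Black bars mark the median of a list in 1 line. The bar of the MYC activated targets is at -0.21 in AGS and -0.01 in HGC-27, and that of the MYC repressed targets is at 0.18 and 0.71.

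AGS over HGC-27, limma called 40 of the 102 list genes higher and 32 lower, beside 33.2% and 27.3% of all genes. Of the 29 MYC-activated targets 5 were higher and 15 lower, with a median of -0.22, beside 0.06 over all genes. CCND2, a D-type cyclin, was lower in AGS by 7.60 with AGS at 15.9 to 22.3 and HGC-27 at 3540 to 4010, a difference that the floor understates, and SHMT2, CAD and NOLC1 were lower by 1.45, 0.99 and 1.26. Of the 12 MYC-repressed targets 8 were higher and 2 lower in AGS, with CDKN1A at 4.55 and CDKN1C at 2.29. The 2 lower ones, named after their values were seen, are CLU and PDGFRB, both at -1.79. PDGFRB lay near or under the floor in AGS. Of the 9 proliferation genes 5 were higher and 1 lower in AGS, with a median of 0.225 and MKI67 at 1.49. In the list of MYC protein turnover 9 of 13 were higher and 3 lower. There FBXO32 had the largest difference, lower at -2.1 (SE 0.358, adjusted p = 0.00223), and SKP2 was lower at -1.45. FBXW7, the ubiquitin ligase subunit that marks MYC for destruction, was higher at 1.34 (SE 0.225, adjusted p = 0.00205) and TRPC4AP at 0.986. Of the 8 targets of MLX and MLXIP 2 were higher in AGS and 4 lower. ARRDC4, TXNIP and ARRDC3 were lower at -1.73, -1.62 and -1.33, and KLF10, a zinc finger repressor, was higher at 1.42 (SE 0.145, adjusted p = 0.00019).

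The relatives of MYC were read beside it. MYCN read 340, 284 and 173 in AGS, against 170, 168 and 172 in HGC-27 for MIST1, GFP control and parental, and was called higher in AGS at 0.59 (SE 0.203, adjusted p = 0.0418 in limma). Its parental arrays were level. MYCL read 53.9 to 64.6 on all arrays, close to the filter limit, and MLXIPL, the second glucose-sensing partner of MLX, read 2.71 to 34.2 and did not pass.

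The genes with the pattern most like MXD1 were sought by the root mean square difference of log2 values centred within each line, over 6 arrays and 13737 other genes. They were LOC101927603 at 0.0602, DDX25 at 0.0702, PRRT2 at 0.0707, VASN at 0.0926 and FZD7 at 0.0951. FZD7, a Wnt receptor, read 1900, 1920 and 932 in AGS, against 1370, 1300 and 550 in HGC-27 for MIST1, GFP control and parental. For MYC they were ST6GALNAC1 at 0.0458, PTGS2 at 0.0519, ANKRD1 at 0.0551, BCS1L at 0.0575 and LRFN1 at 0.0659. DDX25 read 5.09 in parental HGC-27, under the floor. The first 3 of these lay near or under the floor in HGC-27, at 5.19 to 19.1, so their level course there is set by the floor. BCS1L, a mitochondrial assembly factor, was measured throughout, with 531, 510 and 967 in AGS, against 1640, 1590 and 1700 in HGC-27.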

How the data were processed

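RNA was measured on 6 one-colour Affymetrix arrays. The authors deposited 1 linear intensity per probe set, running from 0.48 to 19070.49. The design text names dChip, while background correction and scaling are not given in the sources used here. Members and gene lists were chosen with earlier results of these data known.

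Intensity was floored at the 25th percentile (17.6) and taken to log2, and single-gene probe sets above 50.53 on at least 2 arrays were kept, 25948 in all (control probe sets left out). Symbols were updated through gene IDs. limma 3.58.1 in R 4.3.3 (lmFit, eBayes with trend) was fitted to all 6 arrays with cell line as a block, since the labels give the arrays of a line, and for the lines with condition as a term. Residual degrees of freedom were 2 and prior ones 4.65. Tests were two-sided and adjusted by Benjamini-Hochberg over all probe sets (members) or all 13738 genes (lists). P-values measure only how far single arrays depart from equal condition differences in the 2 lines, departures that may be technical or may differ by line. In the fit of all 6 arrays the parental ones thus enter the SE of MIST1 over GFP control. The script was tested on simulated data.

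Named genes were the members, all 3 other MYC-superfamily genes, the 5 genes nearest in pattern to MXD1 and to MYC, and in each list up to 4 genes past 1.5-fold in every line or condition, or the 2 with the largest difference of one sign. The text names some of these, with BHLHA15 and marker genes beside the results they bear on. Alternatives were quantile normalization, other floors, no filter, left-out arrays, no replicate block, no condition term, other fold limits, 1 probe set per gene and 4 arrays.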

Additional observations from a re-analysis of the deposited data

Results flagged for a closer look

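One network probe set moved in opposite directions in the 2 lines between the transfected populations. MLXIP 211789_s_at was at 0.497 in AGS and at -0.42 in HGC-27 on the log2 scale, MIST1 over GFP control, the only one of the 23 that moved by at least 1.2-fold in opposite directions. It read 101 and 28.2 with MIST1 in AGS and HGC-27, against 71.6 and 37.8 in their GFP controls, and both HGC-27 values lay under the median of all values. The difference between the lines was not tested, and the 3 other MLXIP probe sets did not share it.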

How the results depend on the processing

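For MIST1 over GFP control, limma gave 0 member calls and 0 list calls without the replicate block (no replicate block: 0 higher, 0 lower). List calls for GFP control over parental were 0 there too. That fit puts the difference between the lines into the spread, so it could hardly call anything, and nothing is read from it. One member, MXD3, passed a 1.2-fold limit in both lines with MIST1 (1 higher). List calls were 2 higher with the 4 arrays compared and 0 to 2 with arrays left out; the medians ran from -0.0307 to -0.0131 (activated) and -0.0754 to 0.0712 (repressed). In GFP control over parental, list calls were 1 higher after quantile normalization, 4 higher and 4 lower with the 4 arrays compared, and 0 to 25 higher and 0 to 36 lower with arrays left out. Member counts past the fold limit were 7 higher at 1.2-fold, 0 lower at 2-fold, 1 higher and 0 lower with 1 probe set per gene, and 3 to 5 higher with arrays left out. MIST1 over parental, they were 1 lower at 2-fold, 1 higher and 0 lower with 1 probe set per gene, and 3 to 5 higher and 2 to 5 lower with arrays left out. AGS over HGC-27, member calls were 2 higher and 9 lower with no filter, 2 and 9 with no condition term, 1 and 7 with 1 probe set per gene, and 8 to 16 lower with arrays left out; 19 list genes were lower with no filter. Among single AGS over HGC-27 differences 51 calls were lost over all alternatives and probe sets, with adjusted p up to 0.368, 3 were gained (all MAX 214108_at) and none reversed. Apart from the 4-array fit of the members, the share of all probe sets or genes past these changed rules was not worked out. The counts therefore show how the rule acts, and nothing about the network is read from them. One probe set per gene tests fewer features, and a left-out array removes samples. Other causes were not tested. Dim probe sets near the floor understate differences.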
